A study of Mus musculus with 18 samples.

Results

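The probes described here gave a higher signal on every array of T cells from brown adipose tissue (BAT) than on any array of T cells from the spleen, without setting regulatory and conventional T cells of BAT fully apart. They were chosen by their measured signals. The log2 signals of the 45267 regular probes were quantile-normalized, that is, all arrays were given the same distribution of values. On this scale, 157 probes had a lowest value among the 12 BAT arrays above the highest value among the 6 spleen arrays, and for 64 of these the mean difference was at least 1 log2 unit. Probes were then dropped where the arrays of regulatory and conventional T cells did not overlap among all 12 BAT arrays, which applied to 16 probes, or did not overlap in warm and also not in cold BAT, which applied to 18 probes. The 16 were among the 18, and 46 of the 45267 probes remained, which are called BAT-high probes in what follows. Only 2 probes fulfilled the opposite condition, with all spleen arrays above all BAT arrays by at least 1 log2 unit, before any condition on the cell types.

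The study asked how regulatory T cells (Treg) of BAT differ from those of the spleen and how they respond to cold, with conventional T cells (Tconv) as the counterpart. Treg and Tconv cells were sorted from BAT of mice kept at 30°C (warm BAT), from BAT after 2 days at 12°C (cold BAT) and from spleens of mice at 30°C, and the MouseWG-6 v2.0 BeadChip of Illumina was hybridized with 3 samples of each of these 6 groups. The labels give all groups the strain C57BL/6 and the genotype Foxp3-GFP-DTR-CD90.1, and define Tconv as CD4+Foxp3- and Treg as CD4+CD25+Foxp3+, whereas the text names wild-type females sorted by CD25 alone. The labels state that organs were pooled and that 2.5 ng of RNA was amplified, so that a replicate is a pool, and p-values measure the spread between these pools and arrays, not between single mice.

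Treg cells carry the transcription factor Foxp3 and restrain other immune cells, whereas Tconv cells are the remaining CD4+ T cells and include naive, effector and memory cells. T cells that reside in tissues differ from those of lymphoid organs in receptors, adhesion molecules and activation state, and Treg cells of adipose tissue are a well-known case. BAT is the tissue in which adipocytes produce heat when an animal is exposed to cold. T cells have to be released from it by digestion and sorting, and the sorted cells can carry RNA of other cells.

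The deposited table identifies probes by Illumina identifiers and does not pair them with genes, and no other source of probe annotation was used. The BAT-high probes are therefore described by their identifiers. The labelled cell types could not be checked against Foxp3 or other defining genes, and neither markers of other cells nor gene lists could be evaluated. In these bulk samples, a higher signal from more cells of one kind cannot be told apart from more RNA per cell. Each BeadChip carried 1 of the 3 tissue conditions, with its 3 Treg and 3 Tconv arrays, so that an effect of the BeadChip cannot be told apart from that of tissue or temperature.

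Across the arrays, the 46 probes formed a broad band of higher values in BAT, with little signal in spleen for most of them. Their mean quantile-normalized log2 signal lay between 7.99 and 11.25 in BAT, with a median of 8.67, and between 6.70 and 9.73 in spleen, with a median of 7.20. The median over all 17395 probes that passed the detection filter was 7.46 in BAT and 7.48 in spleen. The BAT-high probes were thus brighter in BAT than the typical probe that passed the filter. In spleen they were dimmer than it by their median, but not all of them, since the upper quartile of their means was 7.73. The difference between the tissues, on which they were selected and which is given without a test, ranged from 1.01 to 2.92 log2 units with a median of 1.38, and only 3 probes differed by more than 2 units. Over all probes that passed the filter its median was -0.04.

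**Figure D1:**
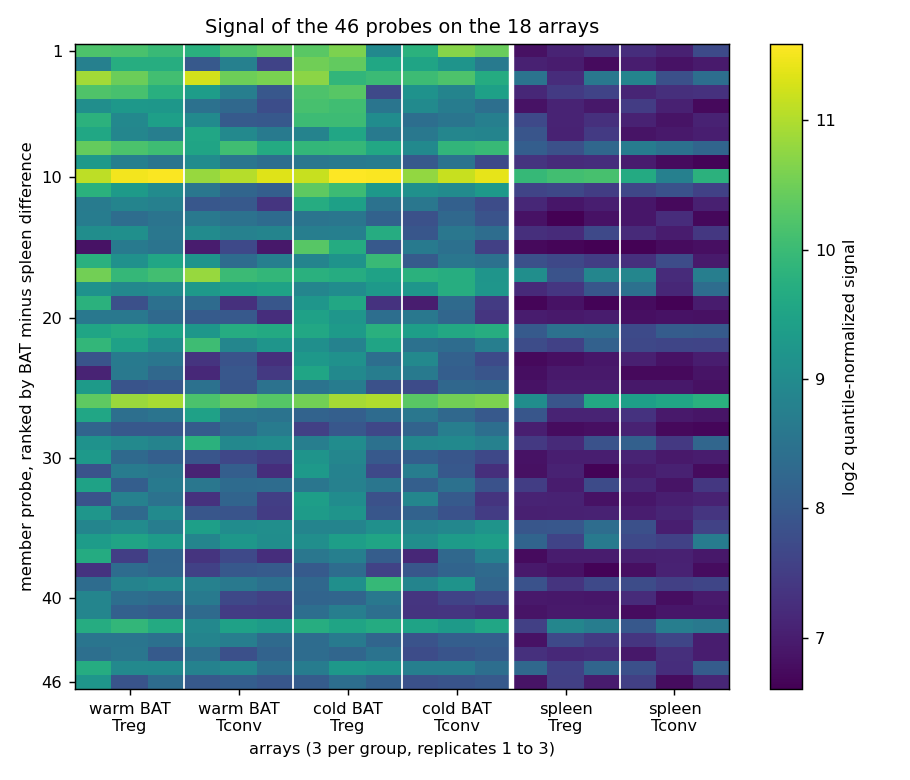
Quantile-normalized log2 signal (colour) of the 46 BAT-high probes (rows, ranked by the mean BAT minus spleen difference) on the 18 arrays (columns, 3 per group, white lines between groups). Each row is brighter in the 12 BAT arrays on the left than in the 6 spleen arrays on the right, as the selection requires, and a few rows stay bright in spleen, up to a mean of 9.73.

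The distance between the 2 sets of arrays was small for many of the probes. The gap between the lowest BAT array and the highest spleen array ranged from 0.03 to 1.26 log2 units, with a median of 0.25. The bead-to-bead error gives a measure of the technical precision of this gap, since each signal is the mean of a median of 39.25 beads per probe. For 31 of the 46 probes the gap exceeded 2 times its standard error from the beads, and the ratio ranged from 0.275 to 12.8. The bead error was taken from the log2 signals before normalization, whereas the gap is on the quantile-normalized scale. Since the selection required a gap, this ratio is a description and not a test. Nearest to the limit of 1 log2 unit, the 3 probes just inside differed by 1.01, 1.03 and 1.04 between the tissues. The 3 probes just outside, which fulfilled the other conditions, differed by 0.999, 0.990 and 0.983.

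Certain arrays set this gap more often than others. The lowest BAT value was from cold BAT Tconv replicate 1 for 13 probes, from warm BAT Tconv replicate 3 for 9, from cold BAT Tconv replicate 3 for 8 and from warm BAT Tconv replicate 1 for 6. Treg arrays of BAT gave the lowest value for the remaining probes other than 1 set by cold BAT Tconv replicate 2. The highest spleen value came from each of the 6 spleen arrays for between 4 and 12 probes, most often from spleen Treg replicate 1.

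With a background correction by the negative control probes, the differences became larger. On this scale the BAT-high probes differed between the tissues by 1.65 to 4.62 log2 units, with a median of 2.25. For the 16 probes that no spleen array detected, these are differences from values at background. By cell type and temperature, the median was 2.63 between warm BAT and spleen Treg cells and 1.95 between the corresponding Tconv cells. It was 2.77 for cold BAT Treg cells and 2.07 for cold BAT Tconv cells, measured against the same spleen arrays. The medians over all probes that passed the filter lay between -0.11 and -0.01 in these 4 comparisons, which share their spleen samples and were used in the selection.

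ILMN_2657175 showed the largest difference between the tissues. Its deposited signal was 1267, 1298 and 1120 intensity units in warm BAT Treg cells and 1117, 1209 and 1485 in warm BAT Tconv cells. In cold BAT it was 1555, 1574 and 537 in Treg cells and 769, 1884 and 1358 in Tconv cells. All BAT arrays were far above the spleen arrays, and the third cold Treg array was the lowest of them. The spleen signals were 104, 153 and 194 in Treg cells and 146, 116 and 179 in Tconv cells, and the probe was detected there on 1 Treg and 2 Tconv arrays. After background correction the mean was 9.93 ± 0.55 (SD, n = 12) in BAT and 5.32 ± 0.47 (SD, n = 6) in spleen on the log2 scale. The means of the 4 BAT groups lay between 9.73 and 10.14, and the 95% interval of the cold minus warm difference reached from -1.14 to 0.73 in Treg cells and from -0.73 to 1.14 in Tconv cells.

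ILMN_1243212 came next, and here the BAT groups were further apart. The deposited signals were 495, 985 and 952 in warm BAT Treg cells and 304, 443 and 220 in warm BAT Tconv cells. In cold BAT they were 1756, 1382 and 779 in Treg cells and 650, 683 and 395 in Tconv cells. Treg means were above Tconv means at both temperatures. On the quantile-normalized scale the cell types overlapped narrowly in warm BAT and did not overlap in cold BAT. None of the 6 spleen arrays, with signals from 103 to 141, detected this probe. Its background-corrected mean was 8.69 ± 1.30 (SD, n = 12) in BAT and 4.97 ± 0.08 (SD, n = 6) in spleen on the log2 scale. The spleen mean rests on undetected signals, and setting the spleen to the lowest detected signal of each array gave a bound of at least 11.2-fold.

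The detection calls showed how far the spleen values can be read as levels. Of the 46 BAT-high probes, between 44 and 46 had a detection p-value under 0.05 on single BAT arrays, as had 14 to 25 on single spleen arrays. Above the 95th percentile of the negative controls of the same array lay 35 to 46 probes in BAT and 5 to 15 in spleen. In all, 42 probes were detected on all 12 BAT arrays. In spleen, 16 probes were detected on none of the 6 arrays, 20 on 1 to 5 arrays and 10 on all 6.

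**Figure D2:**
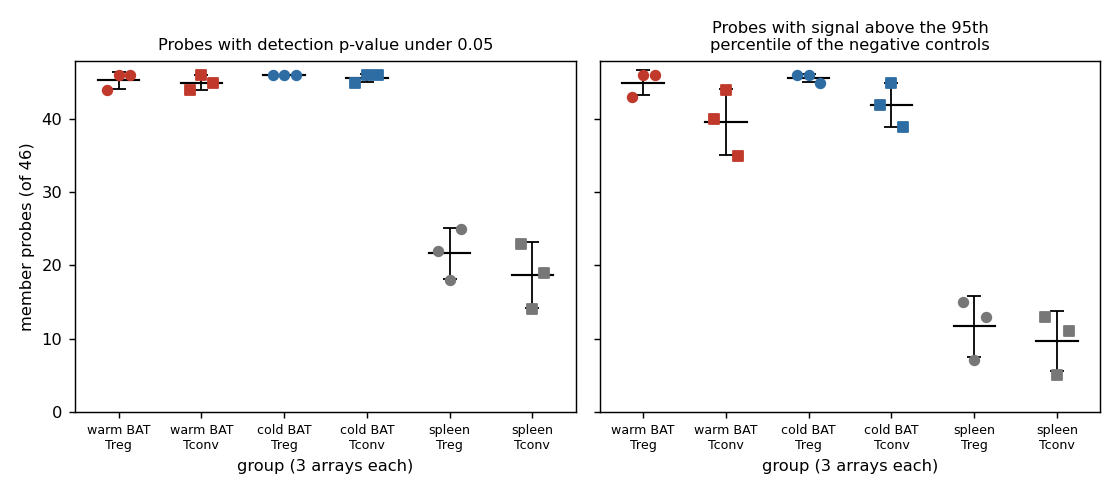
Number of the 46 BAT-high probes (vertical axis) per array that had a detection p-value under 0.05 (left) or a signal above the 95th percentile of the negative controls (right), by group (circles Treg, squares Tconv, bars mean ± SD of 3 arrays). BAT arrays detected 44 to 46 probes and spleen arrays 14 to 25 by the first measure, and 35 to 46 against 5 to 15 by the second.

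The 10 probes detected on all spleen arrays had mean quantile-normalized signals of 7.65 to 9.73 in spleen and 8.79 to 11.25 in BAT. The spleen median over all probes that passed the filter was 7.48. Their background-corrected differences between the tissues were 1.65 to 2.93, with a median of 2.17. These probes were measured on both sides, so that their differences are not set by the background. For the 16 probes not detected in spleen only bounds can be given. Their mean BAT signals were at least 2.96-fold to 11.2-fold above the lowest detected spleen signals, with a median bound of 3.91-fold. The bounds hold for the means only, since some of these probes went undetected on single BAT arrays. The deposited detection p-value is lenient, since 18.7% to 24.9% of the negative controls also passed it on single arrays.

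Technical measures also differed between the tissues. Over all regular probes, 35.7% to 42.2% were detected on BAT arrays and 27.8% to 35.1% on spleen arrays. The mean log2 signal of the housekeeping controls was 9.38 to 10.24 in BAT and 8.87 to 9.62 in spleen, and that of the hybridization controls 11.28 to 11.51 and 11.19 to 11.36. The part of these measures in the differences of the 46 probes was not tested. The mean signal of the negative controls overlapped between the tissues, with 103 to 151 intensity units in BAT and 118 to 163 in spleen.

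Within BAT, the selection left out probes that set the cell types fully apart, but the BAT-high probes still leaned towards Treg cells. Averaged over the 46 probes, the quantile-normalized log2 signal was 9.03 ± 0.12 in warm BAT Treg cells and 8.61 ± 0.14 in warm BAT Tconv cells (SD, n = 3 each). In cold BAT it was 9.08 ± 0.24 in Treg cells and 8.63 ± 0.10 in Tconv cells (SD, n = 3 each). In spleen it was 7.43 ± 0.09 in Treg cells and 7.38 ± 0.10 in Tconv cells (SD, n = 3 each). All Treg arrays of BAT thus lay above all Tconv arrays of BAT in this average, and the cell types overlapped in spleen.

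**Figure D3:**
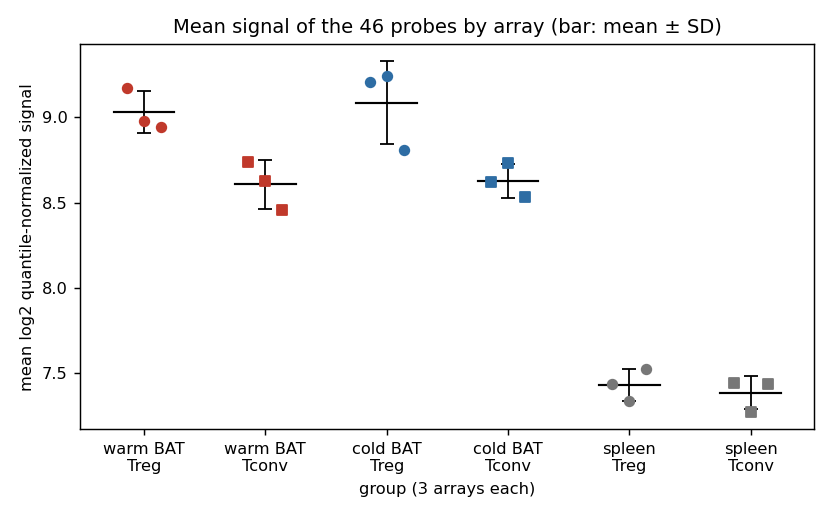
Mean quantile-normalized log2 signal of the 46 BAT-high probes on each array (vertical axis) by group (circles Treg, squares Tconv, bars mean ± SD of 3 arrays). Spleen arrays lie between 7.27 and 7.52, Tconv arrays of BAT between 8.45 and 8.74 and Treg arrays of BAT between 8.81 and 9.24.

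For 38 of the 46 probes the mean over BAT Treg arrays was above that over BAT Tconv arrays. The difference ranged from -0.52 to 1.16 log2 units with a median of 0.39, against -0.04 over all probes that passed the filter. The highest group mean was found in cold BAT Treg cells for 20 probes, in warm BAT Treg cells for 16, in warm BAT Tconv cells for 7 and in cold BAT Tconv cells for 3. These values entered the selection and carry no test. Treg and Tconv arrays did not overlap in warm BAT alone for 13 probes and in cold BAT alone for 14, and they overlapped at both temperatures for 19. The overlap condition shaped these counts. No share over all probes is given beside them or beside the other counts in this paragraph. They describe the 46 probes and cannot show that these differ from other probes.

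In BAT, the BAT-high probes also varied more between replicates than the typical probe that passed the filter. The pooled SD within the 4 BAT groups had a median of 0.61 on the background-corrected log2 scale, whereas it was 0.31 over all probes that passed the filter. Within the 2 spleen groups the medians were 0.37 and 0.36. The median background-corrected signal in BAT was 8.03 for the 46 probes and 5.70 for all, and the spread was not compared at matched levels. The bead-level standard error of a log2 signal was alike, with a median of 0.066 for the 46 probes and 0.071 for all. The wider spread in BAT was thus seen between the arrays of a group, and the beads within an array varied no more than those of other probes.

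The difference between cold and warm BAT was not used to choose the probes, although the selection limited the values at both temperatures. It kept every warm and every cold BAT array above the spleen arrays. A probe raised only in the cold or only in the warm could therefore not be chosen. Within this limit, the comparison asks whether the level of the chosen probes moved with temperature. The threshold was a change of over 2-fold that also had an adjusted p-value under 0.05 in limma's test, and none of the 46 passed it in Treg cells, in Tconv cells or in the mean of both. Over all 17395 probes tested, 0.0862% passed in Treg cells, 0.00575% in Tconv cells and 0.0172% in the mean of both, so that few calls were made for any probe. The smallest adjusted p-values from limma among the BAT-high probes were 0.539, 0.804 and 0.289. Their median difference was -0.00 in Treg cells, 0.07 in Tconv cells and -0.04 in the mean, with as many probes higher in the cold as lower in the mean of both (23 each). The methods' t-test at an unadjusted p under 0.05 and more than 2-fold called 0, 2 and 1 of them, beside 0.862%, 0.621% and 0.471% of all probes, and 0 after Benjamini-Hochberg adjustment.

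Absence of a call is not evidence of equal levels here. The median standard error of a log2 difference was 0.46 within a cell type and 0.33 for the mean of both. The fit pooled the spread of all 18 arrays, spleen included. For the 46 probes the median SD within groups was 0.61 in BAT and 0.37 in spleen. The standard errors and 95% intervals of BAT differences given here can therefore be too narrow. The 95% interval lay within 2-fold in both directions for 6 of the 46 probes in Treg cells, for 5 in Tconv cells and for 18 in the mean. More than 2-fold higher in cold BAT were 2 probes in Treg cells, 6 in Tconv cells and 4 in the mean. More than 2-fold lower were 1, 3 and 0 probes, and of all probes tested 2.91%, 1.48% and 0.713% differed more than 2-fold in either direction.

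At an unadjusted p under 0.05 in limma, 10 of the 46 probes (21.7%) differed between cold and warm BAT in the mean of both cell types, 5 of them higher and 5 lower in the cold, beside 5.86% of all probes tested. In Tconv cells there were 9 (19.6%), 4 higher and 5 lower, beside 4.37%. In Treg cells there were 3 (6.52%), 2 higher and 1 lower, beside 5.98%. The share in Tconv cells and in the mean was thus above the background in limma and split between the directions. This background was not matched for the higher BAT signal of the 46 probes. With only the BAT arrays compared in the fit, the counts were 12 (26.1%, against 8.54% of all probes) in the mean and 11 (23.9%, against 7.58%) in Tconv cells. The methods' t-test at an unadjusted p under 0.05 gave fewer. Its counts were 6 (13%, against 6.51%) in the mean, 1 higher and 5 lower, and 4 (8.7%, against 7.04%) in Tconv cells, 1 higher and 3 lower. It gave 0 (against 6.63%) in Treg cells. For the mean, it joined the arrays of both cell types at each temperature, so that differences between the cell types added to its error. The lower count in the mean is therefore not a like-for-like check of the count from limma.

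The count in Treg cells rested on single arrays. Without cold BAT Treg replicate 3 it was 7 (15.2%, against 6.53% of all probes), all higher in the cold. It was 1 (2.17%, against 4.9%) without warm BAT Treg replicate 1, and 5 (10.9%, against 5.96%), 2 higher and 3 lower, without warm BAT Treg replicate 2. With only the Treg arrays of BAT in the fit, the 3 probes at an unadjusted p under 0.05 (6.52%, against 6.55%) were all lower in the cold, so that neither the number nor the direction was stable in Treg cells.

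The arrays of cold and warm BAT did not overlap for 5 BAT-high probes in Treg cells (10.9%, against 13.4% of all probes tested), 1 higher and 4 lower in the cold. In Tconv cells they did not overlap for 8 probes (17.4%, against 13.8%), 1 higher and 7 lower. With the arrays of both cell types joined, 6 against 6, this held for 1 probe (2.17%, against 0.402%). This probe, ILMN_1220172, was lower in the cold, with background-corrected log2 signals of 9.17 to 9.53 in Treg cells and 8.85 to 9.57 in Tconv cells of cold BAT. In warm BAT they were 9.71 to 10.39 and 9.69 to 10.72.

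**Figure D4:**
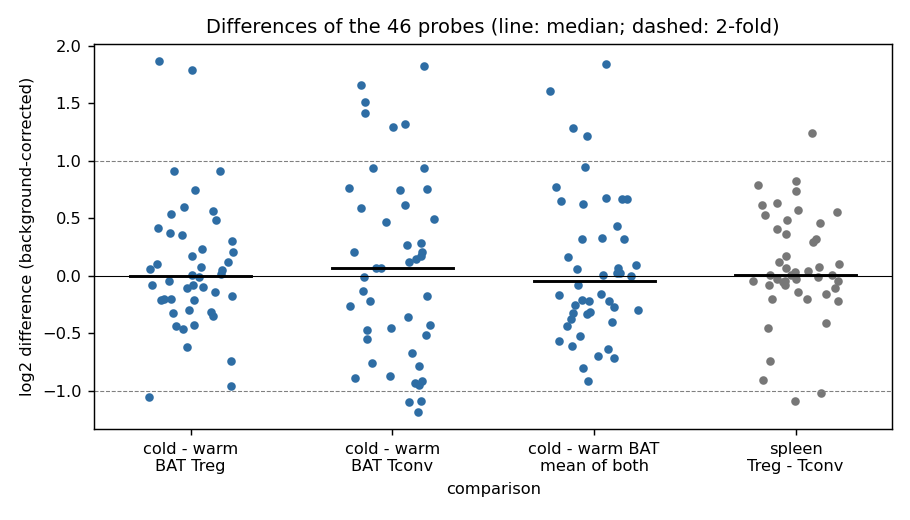
Background-corrected log2 difference (vertical axis) of each of the 46 BAT-high probes (points) in 4 comparisons, with the median (line) and 2-fold (dashed). These differences were not used to choose the probes, but the selection limited the BAT and spleen values from which they were formed. The points scatter on both sides of 0, with medians of -0.00, 0.07, -0.04 and 0.01 from left to right.

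The BAT-high probes with the smallest p-values for cold against warm BAT, 2 in each direction, were picked after their values were seen. ILMN_2964042 had background-corrected log2 signals of 9.57, 8.98 and 8.58 in warm BAT Treg cells and 10.20, 9.82 and 8.91 in cold BAT Treg cells. In Tconv cells it had 7.94, 7.32 and 7.07 in warm BAT and 8.71, 8.58 and 8.93 in cold BAT. The Tconv arrays did not overlap between the temperatures and the Treg arrays did. In spleen the 6 arrays lay between 5.77 and 6.53. The difference in the mean of both cell types was 0.95 with an SE of 0.23, a 95% interval from 0.45 to 1.44 and an adjusted p of 0.289 in limma. Without cold BAT Treg replicate 3 it was 1.13 with an adjusted p of 0.0401 in limma, so that this array decides the call.

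ILMN_2621643 was measured at 5.12, 7.99 and 7.46 in warm and 9.26, 8.52 and 8.17 in cold BAT Treg cells on the same scale. In Tconv cells it was at 5.19, 6.77 and 5.60 in warm and 8.05, 7.08 and 6.69 in cold BAT. The warm arrays were widely spread, and they overlapped with the cold ones in Tconv cells only. The spleen arrays, from 4.82 to 4.96, did not detect it. The difference was 1.61 with an SE of 0.43 and an adjusted p of 0.379 in limma.

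In the other direction, ILMN_2750515 was at 8.12, 7.60 and 7.85 in warm and 7.84, 7.90 and 7.21 in cold BAT Treg cells. In Tconv cells it was at 7.99, 7.79 and 7.56 in warm and 6.52, 7.43 and 6.58 in cold BAT. The lower values were those of cold BAT Tconv cells, which did not overlap with warm BAT Tconv cells. The difference in the mean of both was -0.57 with an SE of 0.18 and an adjusted p of 0.523 in limma. ILMN_2531737 had group means of 9.15 ± 0.53 in warm and 8.73 ± 0.46 in cold BAT Treg cells, and 9.03 ± 0.73 in warm and 7.85 ± 0.30 in cold BAT Tconv cells (SD, n = 3 each). Its difference was -0.80 with an SE of 0.28 and an adjusted p of 0.597 in limma.

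**Figure D5:**
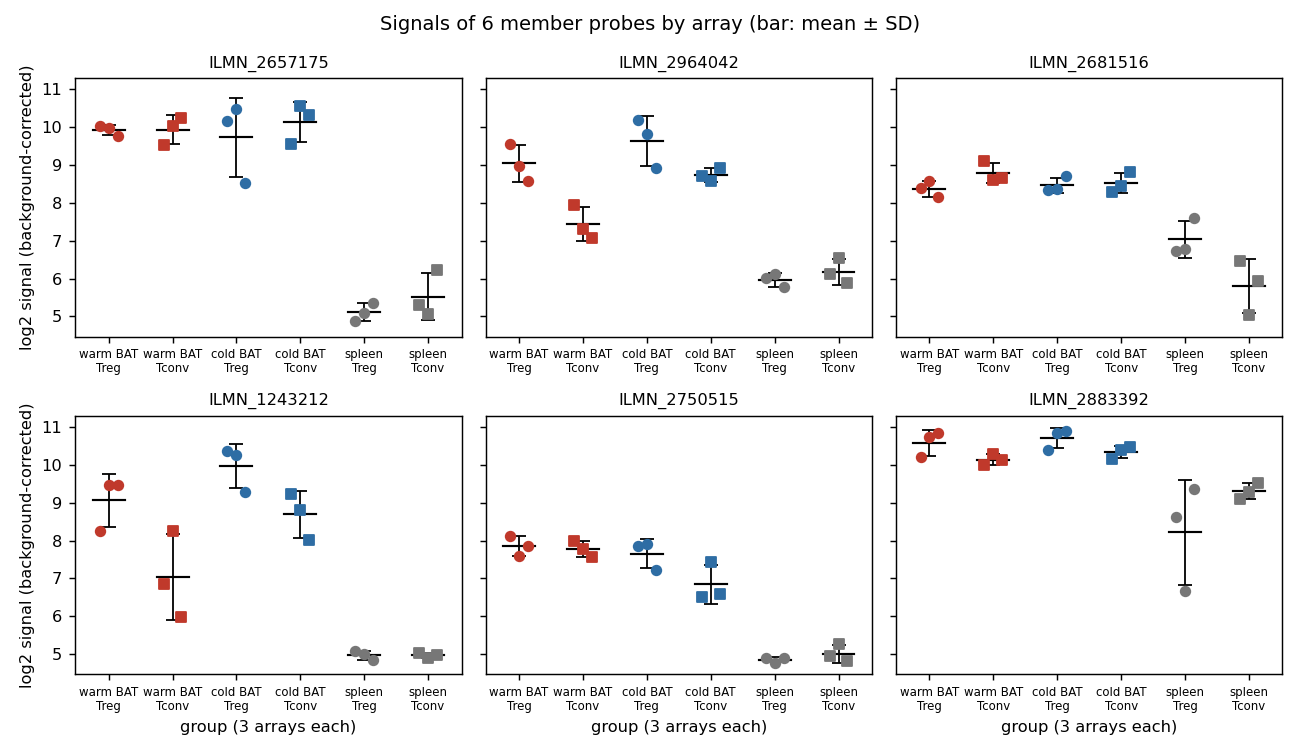
Background-corrected log2 signal (vertical axes) of 6 BAT-high probes on each array by group (circles Treg, squares Tconv, bars mean ± SD of 3 arrays). From left to right the columns hold the 2 probes with the largest difference between BAT and spleen, 1 probe higher and 1 lower in cold BAT, and 1 probe higher and 1 lower in spleen Treg cells, where 1 Treg array of ILMN_2883392 lies at 6.68.

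Whether Treg and Tconv cells of BAT responded differently to cold was fitted as an interaction. The overlap of the cell types in warm and in cold BAT entered the selection, so that the counts for the 46 probes cannot decide this question. No BAT-high probe passed the threshold in limma, and neither did any probe of the whole table (0%). The smallest adjusted p of limma among the 46 was 1.00, and 1 probe (2.17%) had an unadjusted p under 0.05, beside 3.95% of all. That probe, ILMN_1218240, had a cold response of 0.20 in Treg and -0.95 in Tconv cells, a difference of 1.16 with an SE of 0.54. With a median SE of 0.66, the 95% interval lay within 2-fold for only 2 of the 46 probes.

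In spleen, the comparison of Treg with Tconv cells was made on 1 BeadChip and was not part of the selection, although the selection capped the spleen values. None of the 46 BAT-high probes passed the threshold in limma, beside 0.931% of all probes tested. The median difference was 0.01, with 25 probes higher and 21 lower in Treg cells. At an unadjusted p under 0.05 in limma there were 5 (10.9%), 3 higher and 2 lower, beside 11.5% of all, and the methods' t-test called 0 at more than 2-fold and an unadjusted p under 0.05, beside 1.78% of all. Without the fold limit the methods' t-test had 2 (4.35%), both higher, beside 5.58%. The arrays did not overlap for 6 probes (13%), all higher in Treg cells, beside 11.8% of all. The limma and non-overlap shares were near the background. They and the median are limited by the spleen signal. Of the 46 probes, 16 were detected on no spleen array and 20 on 1 to 5 arrays. The 16 passed the filter through BAT alone. So did those of the 20 that were not detected on all 3 arrays of a spleen group. The differences of the 16 lay between -0.16 and 0.12, at background in both cell types. The 10 probes detected on all 6 spleen arrays differed by -1.09 to 0.79, with a median of -0.11, 4 being higher and 6 lower in Treg cells. The difference between the cell type differences of the 2 tissues was not tested, since that of BAT entered the selection.

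The 2 probes in each direction with the smallest p-values in spleen, likewise picked after their values were seen, were measured as follows. ILMN_2681516 had background-corrected log2 signals of 6.73, 6.79 and 7.61 in spleen Treg cells and 6.45, 5.04 and 5.93 in spleen Tconv cells. Its arrays did not overlap, and it differed by 1.24 with an SE of 0.32 and an adjusted p of 0.0971 in limma. Without spleen Tconv replicate 1 the difference was 1.56 with an adjusted p of 0.0172 in limma. Without spleen Tconv replicate 2, which had the lowest signal, it was 0.85 with an adjusted p of 0.230 in limma. The size of the difference and the call thus depended on single arrays. ILMN_2681516 was detected on 2 of the 3 spleen Tconv arrays, so that its difference rests in part on an undetected signal. In BAT the 4 group means of this probe lay between 8.37 and 8.78, above spleen Treg cells at 7.04 ± 0.49 (SD, n = 3). ILMN_2731901 had signals of 6.91, 7.75 and 7.68 in Treg and 6.24, 6.99 and 6.91 in Tconv cells of the spleen, a difference of 0.73 with an SE of 0.26 and an adjusted p of 0.263 in limma.

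Lower in spleen Treg cells was ILMN_2883392, with 8.61, 6.68 and 9.36 in Treg and 9.10, 9.29 and 9.53 in Tconv cells. The arrays overlapped, and the low mean rested on Treg replicate 2. The difference was -1.09 with an SE of 0.46 and an adjusted p of 0.376 in limma. ILMN_2449120 had 7.08, 6.49 and 7.40 in Treg and 8.12, 7.75 and 7.32 in Tconv cells, a difference of -0.74 with an SE of 0.33 and an adjusted p of 0.404 in limma. Both probes were detected on all 18 arrays, and in BAT their group means lay between 9.32 and 10.71.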

How the data were processed

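The deposited table holds, for each array, the mean intensity of the beads of a probe, not normalized per the file headers. The authors also gave a detection p-value, for which no calculation is stated. The deposited bead SD and bead number served for technical errors, and 36 further columns were not used. Intensities of 18 arrays were quantile-normalized on the log2 scale to choose the probes. For tests, limma 3.58.1 (R 4.3.3) corrected the background with the negative controls (neqc, offset 16), and probes detected (p-value under 0.05) on every array of 1 group or more (17395, with all 46 BAT-high probes) were fitted with 1 mean per group and 12 residual degrees of freedom. P-values were adjusted by Benjamini-Hochberg over these probes. A probe that changed over 2-fold was called if its adjusted p-value was under 0.05. The signal of a probe detected on no spleen array was replaced by the lowest signal detected on each array to give a bound. The fit and the selection were tested on simulated data. The number of arrays limits the precision, and 3 against 3 arrays cannot give an exact two-sided p below 0.1.

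The probes and the lists were chosen with earlier results of these data known. The overlap condition was read as dropping probes with no overlap in warm and also none in cold BAT, and a stricter reading, added after seeing the data, is an alternative. For naming, the rule allowed the 20 largest differences between the tissues, called probes and those at the limit of 1. Without gene names, only the 2 probes with the largest differences were identified for that reason. Identified besides were 2 probes in each direction for 2 comparisons and 3 single probes. They were chosen for other values, after these were seen, and some of them are also among the 20. Gene lists, marker lists and promoter sequences fixed for named genes could not be applied. The replicate numbers were checked for pairing, and over all compared groups, BAT Treg with BAT Tconv included, deviations of same-numbered arrays correlated at -0.007 to 0.187, with no set of 3 pairs all above 0.1, so that the numbers were not taken to pair samples. As alternatives, the replicate number served as a block, the fit was limited to the arrays compared, single arrays were left out, the background was left uncorrected, the offset was set to 50, arrays were scaled to the median, the filter was dropped or set to 0.01, and the two-tailed t-test of the study's general methods was used, which name no normalization for these arrays. Python 3.11.15 with matplotlib 3.10.9 drew the figures.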

Additional observations from a re-analysis of the deposited data

How the results depend on the processing

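The number of BAT-high probes depended on the selection. It was 91 with background-corrected values (all 46 among them), 76 with median scaling (37 shared), 108 and 12 with a minimum difference of 0.5 and 1.5, 64 without the overlap condition, and 19 with overlap required at both temperatures. Leaving out 1 array gave 42 to 70 probes, of which 37 to 46 were shared, with 70 without spleen Treg replicate 3 alone.

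In the comparisons above the count of BAT-high probes called stayed at 0 for cold against warm BAT in Treg cells, in Tconv cells and in the interaction under each alternative. Leaving out 1 array gave 0 to 1 for the mean of both cell types (1 without cold BAT Treg replicate 3) and 0 to 1 for spleen Treg against Tconv cells. There it was 1 without spleen Tconv replicate 1, and 1 without spleen Tconv replicate 2. The latter was ILMN_1228557 at -1.86 with an adjusted p of 0.0198 in limma. Only 4 spleen arrays detected this probe, so that its difference rests in part on undetected signals. With the replicate block, 0 BAT-high probes were called in each comparison, and 5 (10.9%, against 6.01% of all) in place of 3 had an unadjusted p under 0.05 for cold against warm BAT in Treg cells.

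Over all probes the counts moved by more than 1.5 times. For cold against warm BAT Treg cells (15) they were 2 without background correction, 9 with an offset of 50, without a filter or with the replicate block, 42 with median scaling, 0 with only the arrays compared or by the adjusted t-test, and up to 81 with 1 array left out. For Tconv cells (1) they were 0 to 2, for the mean (3) 0 to 29 and for the interaction (0) 0 to 8. For spleen Treg against Tconv cells (162) they were 92 without background correction, 56 with median scaling, 88 without a filter, 1 with only the arrays compared, 0 by the adjusted t-test, and up to 351 with 1 array left out. The causes were not tested. Signals near background limit the spleen values.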
